A study of Mus musculus with 25 samples.

Results

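The cytosolic ribosome is built from a small and a large subunit, each an rRNA core carrying a fixed set of proteins, and its protein genes (Rps for the small subunit, Rpl for the large) are transcribed at high and matched levels in nearly every cell. Their mRNAs begin with a run of pyrimidines, the 5′ terminal oligopyrimidine tract, through which Larp1 and mTOR signalling set their stability and translation. Yap is the transcriptional coactivator restrained by the Hippo kinases Lats1 and Lats2, and its activation in hepatocytes, the parenchymal cells of the liver, is a standard way to make the liver overgrow.

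The genes described here were chosen by symbol, as Rpl or Rps followed by digits and at most one of the letters a, x and l, or as Rplp0, Rplp1, Rplp2 and Rpsa, without rows marked as pseudogenes. The rule found 82 symbols among the 37117 rows of the count table. Of these, 78 had at least 1 CPM (a gene's counts scaled to a fixed library total) in at least 3 of the 25 libraries, 46 of the large and 32 of the small subunit, and all 78 were among the 12970 genes tested. The 4 symbols left out were Rpl24, Rpl10l, Rpl39l and Rpl3l. Rpl39l had the highest value just outside the limit, 0.706 CPM in the third highest of its libraries, and Rpl6l the lowest just inside it, 1.67 CPM. Rpl10l had no count in any library, which allows up to 0.370 CPM in the shallowest library and 0.182 CPM in the deepest, for counting error only. Rpl24 had 23 counts over the ApoYap Dox libraries, against 15 over the ApoYap ctrl libraries. How its reads were counted is not known here, so these few counts do not show that it was scarcely expressed.

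RNA came from 500000 sorted hepatocytes per sample of perfused mouse liver, and was counted at transcript 3′ ends, so that counts do not grow with transcript length. Levels of different genes still depend on how reads were assigned to near-identical copies, which is not known here. Group ApoYap Dox (n = 3) carried ApoE-rtTA and TRE-hYAP, a doxycycline-driven human YAP, and drank doxycycline at 0.2 mg/ml in 2.5% sucrose for 1 week. Its control, ApoYap ctrl (n = 4), was untreated. Lats1/2 KO (n = 3) were Lats1 and Lats2 floxed mice 1 week after AAV8 carrying Cre under the hepatocyte promoter TBG, and Lats1/2 flox ctrl (n = 4) were untreated mice of those alleles. In BL/6 mice, BL/6 Dox (n = 4) had the same doxycycline for 1 week and BL/6 AAV-Cre (n = 3) the same virus for 24 hours, both set against untreated BL/6 ctrl (n = 4). The virus was thus in the animals for 24 hours in its BL/6 control and for 1 week in Lats1/2 KO. The labels do not say that replicates were separate animals, so p-values measure the spread between these samples.

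Totals ran from 8107539 to 16515330 counts per library. Lats1 was at 2.97 to 5.10 CPM in Lats1/2 KO, against 12.3 to 14.9 CPM in Lats1/2 flox ctrl, while Lats2 ranged from 7.70 to 17.8 CPM, against 12.9 to 13.7 CPM. Whether the counted 3′ ends lie in the deleted exons is not known here, so these 2 levels check the labels only in part. The standard Yap target Ccn2 ranged over 161 to 182 CPM with doxycycline and 1.20 to 2.6 CPM without it in ApoYap mice, and was at 62.5 to 149 CPM in Lats1/2 KO, against 1.19 to 1.32 CPM in Lats1/2 flox ctrl. Hepatocyte markers were present in every group, none of the 18 at 0. BL/6 Dox 2 stood apart: 11 of the 78 genes were more than 1 log2 unit below the BL/6 ctrl mean in it, while its median difference was 0.12.

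Ribosomal protein genes took a larger share of the RNA after Yap induction. They made up 4.61%, 4.30% and 4.68% of all counts in the 3 ApoYap Dox libraries, against 1.48%, 1.63%, 1.55% and 1.53% in the 4 ApoYap ctrl libraries. All induced libraries lay far above every other library of the study. In Lats1/2 KO the shares were 1.52%, 1.81% and 1.52%, against 1.21%, 1.17%, 1.34% and 1.11% in Lats1/2 flox ctrl, also without overlap. The BL/6 libraries lay between 1.27% and 1.67%. Both subunits contributed: large-subunit genes held 2.39% ± 0.09 in ApoYap Dox and 0.840% ± 0.033 in ApoYap ctrl, and small-subunit genes 2.15% ± 0.11 and 0.706% ± 0.029 (SD, n = 3 and n = 4).

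A share of counts also moves with what the other transcripts do. Counts of mitochondrially encoded genes were 9.15% to 12.2% of ApoYap Dox libraries, against 21.5% to 24.8% of ApoYap ctrl libraries. With libraries scaled by TMM, which assumes that most genes keep their level, the 78 genes summed to 25722 ± 265 CPM in ApoYap Dox and 16573 ± 819 CPM in ApoYap ctrl (SD, n = 3 and n = 4). On the same scale they summed to 13569 ± 400 CPM in Lats1/2 KO and 14042 ± 709 CPM in Lats1/2 flox ctrl (SD, n = 3 and n = 4). The higher share in the knockout was therefore not seen after TMM scaling, whereas that in ApoYap Dox was. Yet 35% of all genes tested were called higher and 32% lower in ApoYap Dox, so the assumption behind TMM may not hold there. In Lats1/2 KO 20.6% were called higher and 17.4% lower, so it may not hold there either. TMM factors were 1.68 to 1.84 in ApoYap Dox, against 0.91 to 0.98 in ApoYap ctrl. They were 1.14 to 1.29 in Lats1/2 KO, against 0.83 to 0.89 in Lats1/2 flox ctrl. All CPM values from here on are TMM scaled unless called unscaled. In such bulk samples, fewer cells of a type and less RNA per cell cannot be told apart.

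**Figure D1:**
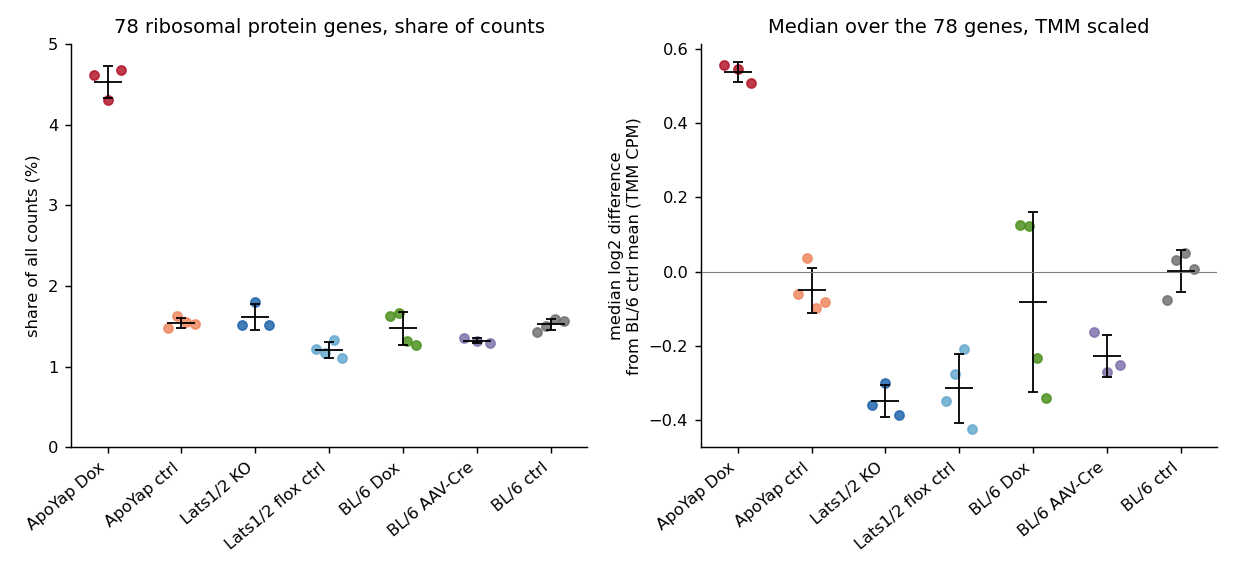
Left, share of all counts (%) from the 78 ribosomal protein genes by library; right, median over the 78 genes of the log2 difference from the BL/6 ctrl mean, TMM-scaled CPM. Points are libraries, lines and bars the mean ± SD. The ApoYap Dox libraries sit at 4.30% to 4.68% on the left and at 0.51 to 0.56 on the right, above all others.

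The first comparison asks what a week of YAP expression did to these genes. Of the 78, 65 rose in ApoYap Dox against ApoYap ctrl, 1 fell and 12 did not pass the test (edgeR's quasi-likelihood test, Benjamini-Hochberg adjusted p under 0.05 over all genes). Among all 12970 genes tested, 35% were called higher and 32% lower. The median log2 fold change of the 78 was 0.60, a 1.51-fold level, against 0.07 over all genes tested. Their middle values lay close together, with quartiles at 0.44 and 0.78, against quartiles of -0.72 and 1.04 over all genes. The small subunit had 28 of 32 genes higher and 1 lower, with a median of 0.66, and the large subunit 37 of 46 higher and none lower, with a median of 0.57. In 68 of the 78 genes every ApoYap Dox library exceeded every ApoYap ctrl library, a pattern that 36.7% of all genes showed, and in 1 every ApoYap Dox library was lower, against 32.6% of all genes. Across the 78 genes the change had a Pearson r of 0.02 with average log2 CPM, as a description over genes of the same libraries.

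The size of this change moved with the scaling. Scaled by total counts alone, 77 of the 78 were higher and none lower, but the median of all genes tested then shifted to 0.98, with 8612 genes called higher and 1643 lower. Relative to the median of all genes, the 78 stood at 0.53 under TMM, under DESeq2's size factors and under total counts alike. A change of scaling moves all genes nearly alike, so this constancy was fixed in advance and tests nothing.

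The most strongly raised were small-subunit genes. Rps12 (chromosome 10, 23785183 to 23787275, GENCODE M21 on GRCm38), whose protein sits on the small subunit's beak and which in Drosophila takes part in cell competition, had 949, 940 and 922 CPM in ApoYap Dox, against 393, 431, 369 and 416 CPM in ApoYap ctrl. The groups were far apart, with a log2 fold change of 1.22 ± 0.16 (SE, edgeR adjusted p = 1.9e-07). Rps29, a small zinc-binding protein of the head, had 1170, 1098 and 1189 CPM, against 539, 552, 480 and 519 CPM (log2 fold change 1.14 ± 0.13 SE, edgeR adjusted p = 1.8e-08). Rps19, whose human counterpart is mutated in Diamond-Blackfan anaemia, had 331, 332 and 365 CPM, against 147, 169, 156 and 159 CPM. Its libraries did not overlap either (log2 fold change 1.12, edgeR adjusted p = 7.1e-07). Rps23, a protein of the decoding centre, had 145, 144 and 127 CPM, against 65.3, 70.0, 57.5 and 65.4 CPM. Its change of 1.10 had a larger error (SE 0.29, edgeR adjusted p = 0.0022), and the gene varied more between libraries of other groups. Rps15a followed at 0.97 (edgeR adjusted p = 4.9e-08).

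Rpl6l had a nominally large change of 1.18 but did not pass the test (edgeR adjusted p = 0.16). It was barely measured, at 1.23, 0.995 and 0.917 CPM, against 0.706, 0, 0.519 and 0.602 CPM.

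Large-subunit genes with known places in the ribosome were among those raised. Rpl39, of the peptide exit tunnel, had 249, 240 and 228 CPM in ApoYap Dox, against 114, 131, 125 and 122 CPM in ApoYap ctrl (log2 fold change 0.96, edgeR adjusted p = 1.4e-06). Rpl12, at the stalk base, rose by 0.93 and Rplp0, Rplp1 and Rplp2, the stalk that recruits elongation factors, by 0.75, 0.81 and 0.47 (edgeR adjusted p = 2.9e-07, 3.9e-06, 2.7e-06 and 0.0021). Rplp1 was the most abundant of the 78, at 1325, 1409 and 1448 CPM, against 715, 869, 757 and 831 CPM. Rpl3, near the peptidyl transferase centre, rose by 0.74 (edgeR adjusted p = 1.2e-05). Rpl5 and Rpl11, which bind 5S rRNA and can restrain the p53 ligase Mdm2, rose by 0.72 and 0.40 (edgeR adjusted p = 0.00018 and 0.0055). Rpl32, often used as a reference transcript in PCR, had 555, 580 and 604 CPM, against 309, 332, 317 and 304 CPM, so that it was itself not constant (edgeR adjusted p = 1.8e-08).

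Several other genes of known special roles rose as well, by 0.51 (Rps25) to 0.91 (Rps27a) on the log2 scale. Rps4x, the X-linked copy of that protein, rose by 0.84, and Rpsa, a small-subunit protein first known as a laminin receptor precursor, by 0.53. Rpl38, needed for translation of some Hox mRNAs in mouse embryos, rose by 0.60, and Rps25, used by several viral internal ribosome entry sites, by 0.51. Rps14, deleted with 5q in human myelodysplasia, rose by 0.63. Rpl10a had 34.2, 32.3 and 27.7 CPM, against 19.3, 19.1, 18.8 and 18 CPM. Rps27a, made as a fusion with ubiquitin, had 210, 203 and 191 CPM, against 102, 122, 106 and 98.5 CPM. Neither overlapped between groups, and the edgeR adjusted p of these 7 genes ran from 2.1e-06 (Rps4x) to 0.0011 (Rps27a).

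**Figure D2:**
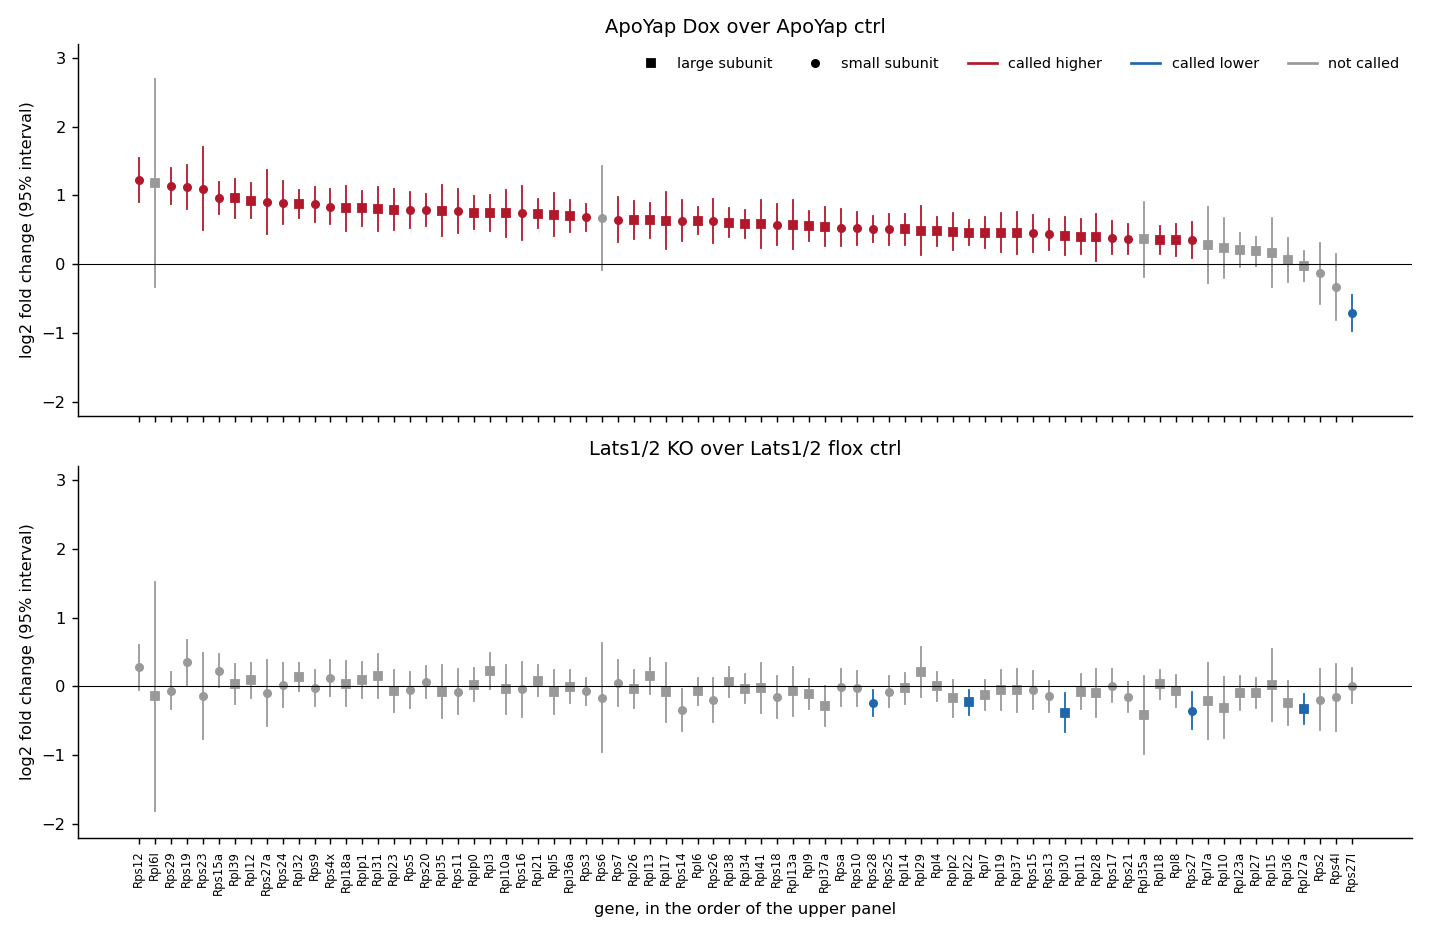
Log2 fold change of 77 of the 78 genes, each with its 95% interval, ApoYap Dox over ApoYap ctrl above and Lats1/2 KO over Lats1/2 flox ctrl below, in the order of the upper panel. Squares are large-subunit and circles small-subunit genes, red called higher, blue called lower and grey not called. In the upper panel 64 of the genes drawn are called higher and 1 lower, in the lower panel 5 are called lower.

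A single member fell. Rps27l (chromosome 9, 66946086 to 66949516), a p53-inducible paralog of Rps27, had 128, 131 and 92.6 CPM in ApoYap Dox, against 193, 189, 206 and 178 CPM in ApoYap ctrl. All induced libraries were below all controls (log2 fold change -0.71 ± 0.13 SE, edgeR adjusted p = 2.2e-05). Scaled by total counts alone its change was 0.20, so that its direction holds only relative to the other genes. Rps27 itself had 248, 232 and 258 CPM, against 191, 202, 196 and 182 CPM (log2 fold change 0.35, edgeR adjusted p = 0.017, and 0.058 without ApoYap Dox 3).

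The other 11 genes that did not pass the test, beside Rpl6l, were Rps4l, Rps2, Rpl27a, Rpl36, Rpl15, Rpl27, Rpl23a, Rpl10, Rpl7a, Rpl35a and Rps6. Some of them were measured tightly. Rpl27a had 68.4, 67.8 and 74.3 CPM, against 69.8, 71.8, 76.8 and 66.9 CPM, overlapping, with a 95% interval of -0.24 to 0.19 for the log2 fold change. Rpl27 (0.19) and Rpl23a (0.21) had intervals of -0.02 to 0.40 and -0.04 to 0.45. Others were loose: Rps2 had an interval of -0.57 to 0.31, Rpl15 of -0.33 to 0.67, and Rps6, the substrate of S6 kinase, of -0.09 to 1.43. Rps6 was at only 15.3, 12.0 and 16 CPM, against 6.15, 10.1, 13.0 and 7.22 CPM. Rps4l had 22.8, 25.2 and 19.1 CPM, against 21.5, 24.6, 24.6 and 42.1 CPM, and ApoYap ctrl 4 was apart from the other controls.

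Pseudogene rows matter for several members. Rows whose names mark them as copies (-ps) held 0.166% ± 0.028 of counts in ApoYap Dox and 0.0639% ± 0.0063 in ApoYap ctrl (SD, n = 3 and n = 4). Over all libraries, the copies held 46.7% of the counts of Rpl10 and its copies together, 43.9% for Rps6, 43.6% for Rpl10a and 39.4% for Rpl36. Smaller shares were, among others, 23.9% for Rpl28, 19.5% for Rps2, 16.8% for Rps27a, 15.4% for Rps15a and 7.64% for Rps12. Copies of Rps6 averaged 17.2 unscaled CPM in ApoYap Dox and 5.80 unscaled CPM in ApoYap ctrl, and those of Rps12 124 and 28.8 unscaled CPM. No source used here says how reads were shared among near-identical copies, so levels and changes of these genes are uncertain.

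**Figure D3:**
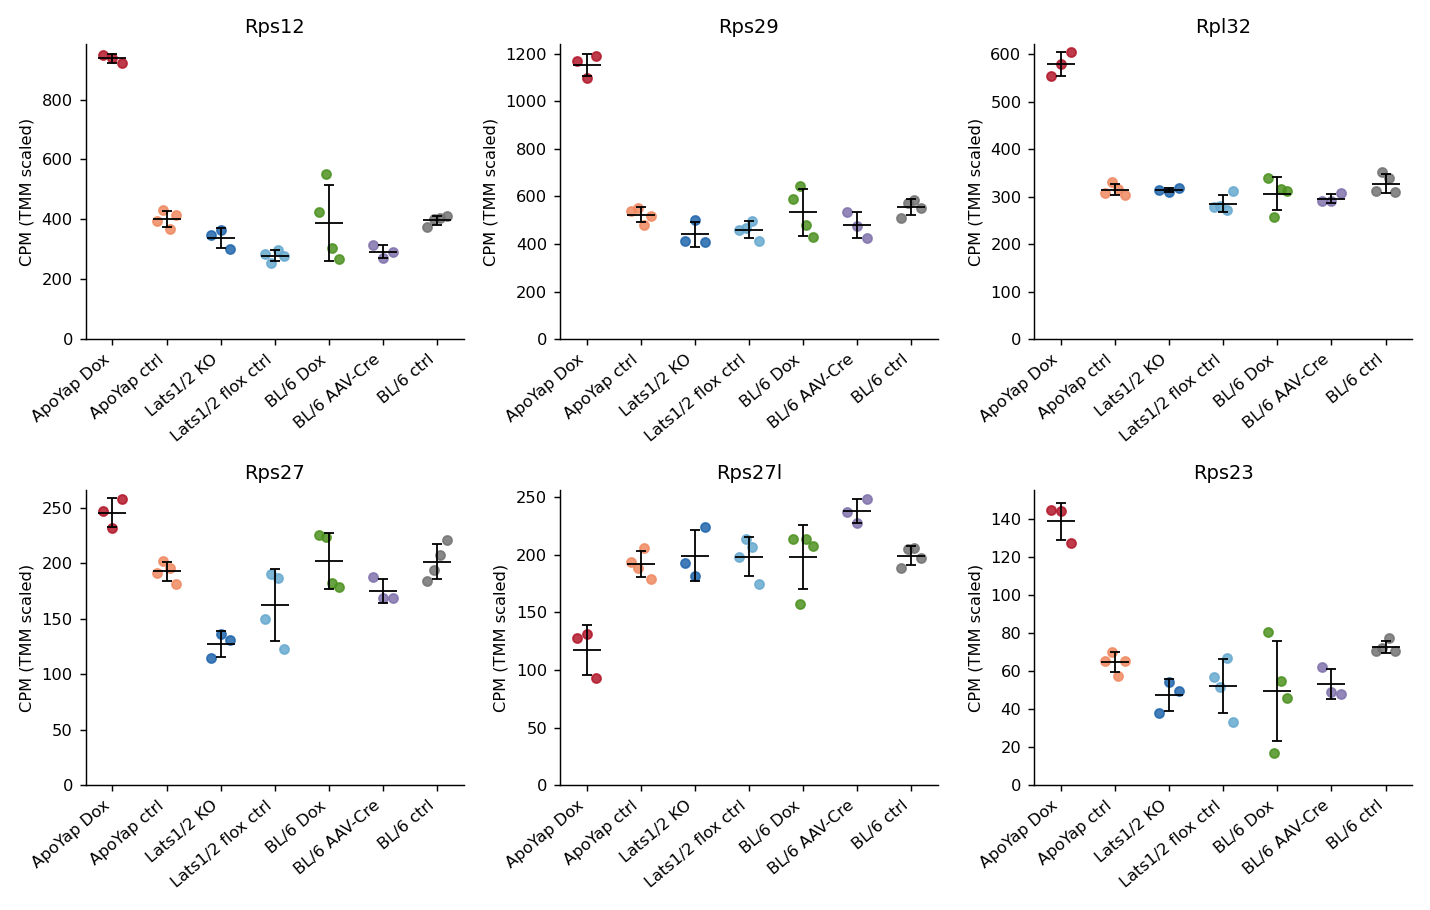
CPM (TMM scaled) of 6 genes by group; points are libraries, lines and bars the mean ± SD, axes from 0. Rps12, Rps29, Rpl32 and Rps23 lie higher in ApoYap Dox than in every other group, Rps27 less so, and Rps27l lies lower. Rps23 also shows the low BL/6 Dox 2 library at 16.8 CPM.

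Marker transcripts of cells other than hepatocytes were also higher in ApoYap Dox. Among all genes tested, 35% were called higher and 32% lower, to be set beside each count here. All 21 macrophage markers were called higher, and their sum ran from 14790 to 26237 unscaled CPM, against 121 to 279 unscaled CPM in ApoYap ctrl. Of 18 endothelial markers 17 were called higher (sums of 1364 to 2672, against 91.9 to 237 unscaled CPM), and of 16 stellate cell and fibroblast markers 9 (306 to 521, against 64.9 to 144). Neutrophil markers summed to 22.6 to 59.5 unscaled CPM, against 0.257 to 1.53, with Ly6g at 0 in both groups. Only 4 of the 11 listed were tested, all 4 higher. Genes this scarce in the controls pass the count filter through the group where they are high, so this count was nearly fixed in advance. T, NK and B cell markers summed to 9.5 to 15.8, against 1.30 to 2.34 unscaled CPM, with 2 of 14 tested. Of 9 cholangiocyte markers 3 were tested, 1 higher (Spp1) and 1 lower. Hepatocyte markers summed to 75336 to 102344 unscaled CPM, against 121211 to 138811, with 17 of 18 called lower. Which cells these transcripts came from, and their part in the change of ribosomal protein genes, was not tested.

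The start regions of the genes were read from RefSeq promoters (GRCm38.p6), which gave 56 of the 78. A run of at least 8 pyrimidines lay within 25 bases of the annotated start in 28 of 56 genes (50%), against 19.4% of all 27025 promoters. It was in 7 of the 14 genes with the highest change in ApoYap Dox and in 8 of the 14 with the lowest. The 4 highest and 4 lowest genes with an entry are printed because they bracket the range of responses, 25 bases before and 25 after the most upstream annotated start, with the longest pyrimidine run in capitals.
Rps12: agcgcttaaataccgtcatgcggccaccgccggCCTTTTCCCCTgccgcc
Rps19: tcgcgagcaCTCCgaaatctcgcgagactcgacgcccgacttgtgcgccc
Rps23: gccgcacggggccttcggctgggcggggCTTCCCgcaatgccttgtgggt
Rps15a: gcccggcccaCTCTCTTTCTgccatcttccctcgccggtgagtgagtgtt
Rpl15: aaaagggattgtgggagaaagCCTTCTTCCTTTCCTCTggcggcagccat
Rpl27a: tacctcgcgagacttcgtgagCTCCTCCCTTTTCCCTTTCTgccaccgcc
Rps2: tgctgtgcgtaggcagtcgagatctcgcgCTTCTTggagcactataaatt
Rps27l: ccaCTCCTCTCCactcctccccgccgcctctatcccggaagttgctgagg

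The strongest responders did not stand out by this run. Rps12 (chr10:23787185-23787234, minus strand) and Rps15a (chr7:118116123-118116172, minus strand) had runs of 11 and 10 bases, but Rps19 (chr7:24884567-24884616, plus strand) and Rps23 (chr13:90923097-90923146, plus strand) had 4 and 6. The longest runs of the 8 were in Rpl27a (chr7:109519170-109519219, plus strand; 20 bases) and Rpl15 (chr14:18270962-18271011, minus strand; 17 bases), whose levels did not pass the test. Rps2 (chr17:24720038-24720087, plus strand) had 6 bases and Rps27l (chr9:66946061-66946110, plus strand) 9. Annotated starts may be off by some bases, so a short run here does not show that the mRNA lacks one.

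Other short motifs were counted on both strands of the 300-base promoters, 250 before to 50 after the start. CCGGAAG, a form of the ETS site, was in 41.1% of the 56 promoters and in 9.14% of all. The GC box GGGCGG was in 60.7%, against 35.9%, and AAGATGG, as in YY1 sites, in 16.1%, against 6.46%. GGAATG, the core bound by the TEAD partners of Yap, was in 10.7%, against 14.7%, and the E-box CACGTG bound by Myc in 8.93%, against 7.24%. TATAAA was in 10.7%, against 14.2%. All 27025 promoters served as the comparison, not only those of the 12970 genes tested. CCGGAAG was in 3 of the 14 genes with the highest change in ApoYap Dox and in 6 of the 14 with the lowest. The GC box was in 10 and 11 of them, AAGATGG in 1 and 3, and GGAATG in 1 and 1. A match is a string of letters and not a measured site.

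The other genes of translation did not all follow. For the counts below, 35% of all genes tested were called higher and 32% lower in ApoYap Dox. The 76 mitochondrial ribosomal protein genes tested, a list taken by symbol after the files were seen, had 64 lower and 1 higher in ApoYap Dox, with a median of -0.76. Mrps31, of the mitochondrial small subunit, had 13.7, 12.6 and 12.3 CPM, against 42.8, 41.3, 38.7 and 42.5 CPM (log2 fold change -1.69, edgeR adjusted p = 3.6e-12). Of 19 genes of translation and other functions whose mRNAs have been described with pyrimidine tracts, 10 rose and none fell, with a median of 0.30. They included Npm1 (1.24), a nucleolar chaperone, Nap1l1 (1.25) and Pabpc1 (0.76), the poly(A)-binding protein (edgeR adjusted p = 1.2e-09, 2.2e-11 and 0.0066). The list also held Vim, raised by 5.20, a mesenchymal gene of other cell types. The elongation factors Eef1a1 and Eef2 were at 0.05 and -0.00 and did not pass the test. Of 28 other initiation factors 12 fell and 3 rose, among them Eif4g1, the cap-binding scaffold (-1.01, edgeR adjusted p = 2.8e-08).

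Ribosome assembly factors went both ways. Of 58, 16 rose and 8 fell, with a median of 0.14, a smaller share in each direction than the 35% and 32% of all genes. Tcof1, a nucleolar factor of rRNA synthesis, rose by 2.23, the C/D snoRNP proteins Nop56 and Nop58 by 1.38 and 1.32, and Ncl, nucleolin, by 0.79 (edgeR adjusted p = 2.1e-11, 2.4e-07, 2.7e-05 and 3.2e-08). Nop10, of the H/ACA snoRNPs, fell by 1.10 and Rcl1 by 2.00 on the log2 scale (edgeR adjusted p = 1.4e-09 and 3.3e-07), while the C/D methyltransferase Fbl did not pass the test (0.20, edgeR adjusted p = 0.3). Of 17 genes of RNA polymerase I and its factors 4 rose and 3 fell, again below those shares, with Polr1a, its largest subunit, at 1.08. Of 16 regulators 3 rose and 7 fell, against 35% and 32% of all genes. Myc had 9.18, 8.82 and 14.6 CPM, against 1.41, 1.34, 1.14 and 1.80 CPM (log2 fold change 2.92, edgeR adjusted p = 0.00047). Larp1, which binds the pyrimidine tract, had 132, 106 and 124 CPM, against 185, 210, 218 and 207 CPM (-0.76, edgeR adjusted p = 9.6e-06). Both regulators were thus without overlap between groups, in opposite directions, patterns that 36.7% (higher) and 32.6% (lower) of all genes showed. Maf1 had the smallest p of the list (1.33, edgeR adjusted p = 4.1e-08). Rps6kb1 was lower (-0.36, edgeR adjusted p = 0.0017), and Mtor did not pass the test (-0.05).

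**Figure D4:**
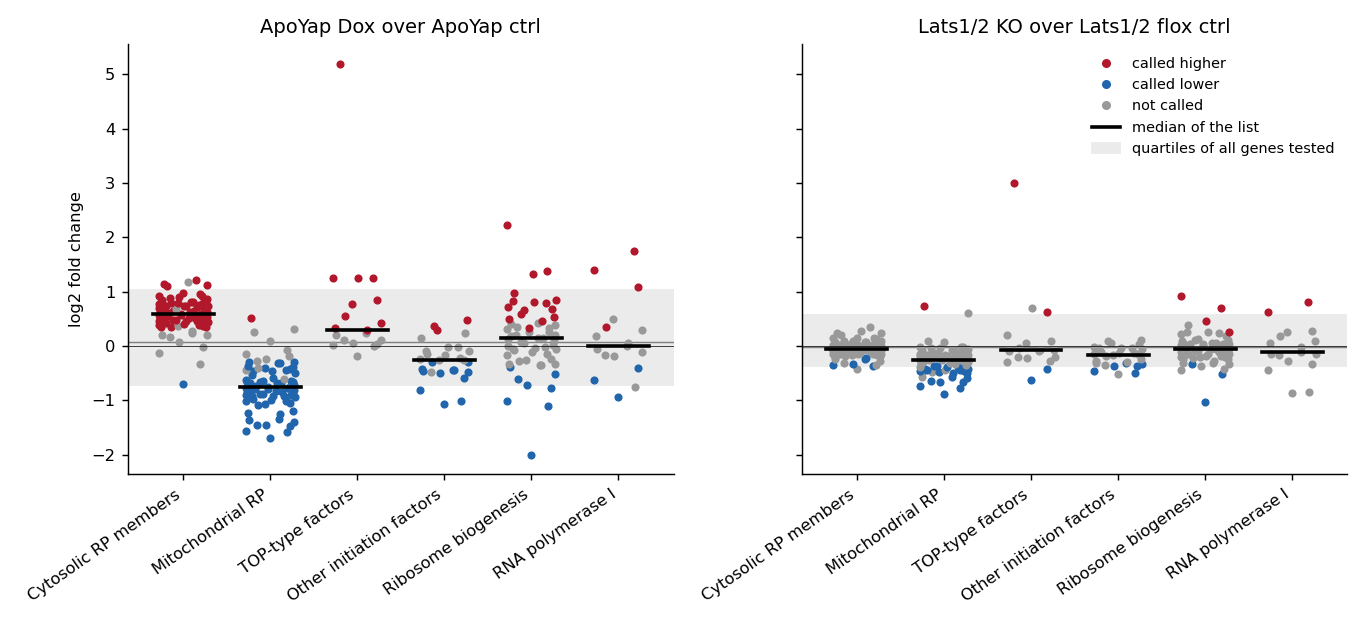
Log2 fold change of every tested gene in 6 groups of genes, ApoYap Dox over ApoYap ctrl at left and Lats1/2 KO over Lats1/2 flox ctrl at right. Red points were called higher, blue lower and grey not called; thick lines are list medians and the grey band spans the quartiles of all genes tested. The 78 cytosolic ribosomal protein genes centre on 0.60 at left and -0.06 at right, mitochondrial ones on -0.76 and -0.25.

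Loss of Lats1 and Lats2, the second route to active Yap, left the 78 genes near their control level. None rose, 5 fell and 73 did not pass the test (edgeR's quasi-likelihood test, adjusted p under 0.05), against 20.6% called higher and 17.4% lower of all genes. At an unadjusted p under 0.05 there were 7 in either direction, and DESeq2 called 3 higher and 1 lower. The median log2 fold change was -0.06, against -0.03 over all genes, and the 78 ran from -0.42 (Rpl35a) to 0.35 (Rps19). For 57 of the 78 the 95% interval lay within 0.5 on either side of 0, and for 77 within 1, so that larger changes were not seen at this depth for most genes.

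The 5 lower genes were Rpl27a, Rpl30, Rps27, Rps28 and Rpl22. Rpl27a had 52.3, 54.8 and 39.0 CPM in Lats1/2 KO, against 58.0, 60.8, 61.6 and 64.9 CPM in Lats1/2 flox ctrl, without overlap (log2 fold change -0.33 ± 0.11 SE, edgeR adjusted p = 0.015). Rps28 had 244, 244 and 247 CPM, against 256, 298, 321 and 283 CPM (-0.24, edgeR adjusted p = 0.044). Rpl22, whose paralog Rpl22l1 it can repress in mouse, had 146, 151 and 143 CPM, against 175, 167, 180 and 163 CPM (-0.23, edgeR adjusted p = 0.045). These changes were small and the groups just separate. Rpl30, which in yeast binds its own transcript, had 93.8, 124 and 103 CPM, against 152, 150, 150 and 105 CPM, and Rps27 had 115, 137 and 131 CPM, against 150, 191, 187 and 123 CPM. Both overlapped through Lats1/2 flox ctrl 4 (-0.38 and -0.35, edgeR adjusted p = 0.032 and 0.033).

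These 5 calls were fragile. The count of lower genes was 1 without ApoYap ctrl 3, Lats1/2 flox ctrl 2 or 3, or Lats1/2 KO 1 or 3. It was 3 without ApoYap ctrl 1, 2 or 4, ApoYap Dox 1, Lats1/2 flox ctrl 1, Lats1/2 KO 2, BL/6 ctrl 1, 2 or 4, or any 1 of the 3 BL/6 AAV-Cre libraries. Scaled by total counts alone, 54 of the 78 were called higher and none lower, with all genes shifted to a median of 0.44 (5777 higher and 573 lower), and the 5 genes changed sign. Relative to the median of all genes the 78 stood at -0.03 in each of these scalings, which move all genes nearly alike.

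The genes at the top of the knockout were partly those at the top of Yap induction, below the threshold. Rps19 had 144, 131 and 137 CPM in Lats1/2 KO, against 96.3, 109, 125 and 100 CPM in Lats1/2 flox ctrl (0.35, edgeR adjusted p = 0.082). Rps12 had 349, 364 and 300 CPM, against 284, 256, 298 and 278 CPM (0.28, edgeR adjusted p = 0.17), and Rps15a stood at 0.23 (edgeR adjusted p = 0.12). In all 3 every knockout library was above every control, as in 4 of the 78 genes and 20.9% of all genes. Libraries were all below their controls in 7 of the 78, against 18.8% of all genes. Across the 78 genes the log2 fold changes of the comparisons, which share no library, had a Pearson r of 0.44 and a Spearman rho of 0.51, as a description over genes of 1 fit.

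Non-hepatocyte markers were also higher in Lats1/2 KO. Of the macrophage markers 20 of 21 were called higher (1045 to 2771 unscaled CPM, against 108 to 325), of the endothelial 18 of 18 (619 to 1696, against 93.9 to 275) and of the stellate 15 of 16 (301 to 1001, against 73.0 to 86.6). Cholangiocyte markers summed to 105 to 330, against 41.2 to 74.3 unscaled CPM, with 2 of 3 tested (9 listed) called higher. Neutrophil markers summed to 1.27 to 5.38, against 0.291 to 0.736 unscaled CPM, with 2 of 4 tested (11 listed) called higher. Hepatocyte markers summed to 98266 to 99549, against 107118 to 118193 unscaled CPM, with 14 of 18 lower. Myc rose in the knockout too, with 9.08, 7.94 and 2.17 CPM, against 3.84, 0.795, 0.357 and 0.690 CPM (2.14, edgeR adjusted p = 0.016), although Lats1/2 KO 3 was below Lats1/2 flox ctrl 1. Their part in the values of the 78 genes was not tested. Of the mitochondrial ribosomal proteins 22 of 76 fell and 1 rose, with a median of -0.25, and of the 58 assembly factors 4 rose and 3 fell. Among all genes tested 20.6% were called higher and 17.4% lower.

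The difference between both routes was tested directly. In Lats1/2 knockout less Yap induction, 57 of the 78 genes were lower and 1 was higher (edgeR's quasi-likelihood test on the difference of the contrasts, adjusted p under 0.05), against 12.4% called lower and 17.4% called higher of all genes. The median difference was -0.67, against -0.01 over all genes. Rps29 differed by -1.20 ± 0.18 (SE, edgeR adjusted p = 1.7e-05), Rps23 by -1.24 ± 0.42 (edgeR adjusted p = 0.029) and Rps27a by -1.01 ± 0.32 (edgeR adjusted p = 0.021). Rps23 did not pass without any 1 of ApoYap ctrl 3, ApoYap Dox 1 or 2, Lats1/2 flox ctrl 1 or 3, or Lats1/2 KO 1 or 3, with adjusted p from 0.051 to 0.084, nor did Rps27a without Lats1/2 KO 1 (0.069). Rps27l was the higher gene, by 0.72 ± 0.17 (edgeR adjusted p = 0.0029). Relative to the median of all genes the difference was -0.66 under TMM and -0.67 under total counts alone, scalings that move all genes nearly alike. Marker genes of cell types differed between the routes as well: 20 of 21 macrophage markers were lower (median -3.01) and 14 of 18 hepatocyte markers higher (median 1.15) in the knockout less Yap induction, and their part in the difference was not tested. The routes also differed in strain and agent, which cannot be told apart from the route itself.

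Some pairs of paralogs held a gene called higher and another called lower in the same comparison. Rpl22 rose by 0.46 and Rpl22l1 by 0.66 in ApoYap Dox, while in Lats1/2 KO Rpl22 fell by 0.23 and Rpl22l1 rose by 0.65. Rpl22l1 had 74.8, 80.3 and 65.0 CPM in Lats1/2 KO, against 51.1, 46.2, 41.7 and 48.2 CPM in Lats1/2 flox ctrl, without overlap. Rpl36a rose by 0.70 in ApoYap Dox, whereas Rpl36al fell by 0.38 (edgeR adjusted p = 7.6e-06 and 0.0011), and Rpl7 rose by 0.46, whereas Rpl7l1 fell by 0.56 (edgeR adjusted p = 0.00056 and 0.00014). Differences within a pair were not tested, and Rpl7 and Rpl36a were picked after their values were seen. Of the 6 tested ribosomal proteins outside the symbol rule, Rack1, a scaffold on the small-subunit head, had 450, 458 and 470 CPM in ApoYap Dox, against 245, 255, 235 and 246 CPM in ApoYap ctrl (0.91, edgeR adjusted p = 2.5e-09). Rps3a1 (0.51) and Fau, the ubiquitin-like fusion of Rps30 (0.32), rose as well, so that 4 of the 6 rose and 2 fell, against 35% and 32% of all genes.

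The agents alone were checked in BL/6 mice. In BL/6 Dox none of the 78 genes was called in either direction by edgeR or DESeq2, against 0.0231% higher and 0.1% lower of all genes by edgeR, with 9 at an unadjusted p under 0.05. In no gene were all BL/6 Dox libraries above or all below BL/6 ctrl, against 3.33% and 3.29% of all genes. The median was -0.04. The 4 libraries did not form one group: their medians against BL/6 ctrl were 0.12 and 0.12 for BL/6 Dox 1 and 2, and -0.23 and -0.34 for BL/6 Dox 3 and 4. In BL/6 Dox 2, Rps6 was at 2.02 CPM, Rps23 at 16.8 CPM and Rpl15 at 5.24 CPM, against 10.0 to 11.2, 70.4 to 77.4 and 21 to 25 CPM in BL/6 ctrl, while Rpl36 was at 182 CPM, against 109 to 122 CPM. Without BL/6 Dox 2 no gene was called either, without BL/6 Dox 1 there was 1 lower, and without both there were 4 lower and 1 higher.

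Net of doxycycline, that is with the BL/6 Dox difference subtracted, 60 of the 78 genes were higher in Yap induction and 1 lower (edgeR's quasi-likelihood test), against 26.7% and 27.4% of all genes. The median was 0.68, against 0.03 over all genes. Rps23 (1.66), Rps27a (1.44), Rps12 (1.26) and Rps29 (1.20) were highest and Rps27l (-0.70) lowest, and the first 2 were low in BL/6 Dox 2. Without that library 66 were higher and 1 lower.

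In BL/6 AAV-Cre no gene was called by edgeR, against 0.254% higher and 0.0463% lower of all genes, with 27 at an unadjusted p under 0.05. DESeq2 called 1 higher and 2 lower, and edgeR 1 higher and 27 lower when fitted on the compared groups alone, and 1 higher and 9 lower without BL/6 Dox 1 and 2. The shares of all genes at the unadjusted threshold and in these other fits are not given here. These counts alone therefore do not show a change particular to the 78. In the fit over all libraries 72 of the 78 had a negative sign and the median was -0.22, against -0.00 over all genes. In 42 genes every BL/6 AAV-Cre library was below every BL/6 ctrl library, against 7.52% of all genes, and in 2 every one was above, against 8.3%. Lats1/2 knockout net of AAV-Cre then had 3 genes higher (Rps12 0.72, Rps19 0.62, Rpl3 0.58) and 1 lower (Rpl23a -0.54), against 13% and 11.4% of all genes (edgeR's quasi-likelihood test), with a median of 0.17. There were 6 higher and 0 lower under RLE scaling, 52 higher and 0 lower under total counts alone, 12 higher with DESeq2 and 18 with the compared groups alone. The higher count was 0 without Lats1/2 KO 2, 1 without Lats1/2 KO 1 or BL/6 AAV-Cre 2, 5 without BL/6 Dox 1 or 4, and 6 without BL/6 Dox 2. The lower call was lost without Lats1/2 KO 2 or BL/6 AAV-Cre 3.

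The untreated groups were compared as well. Between ApoYap ctrl and BL/6 ctrl none was called by edgeR or DESeq2, against 0.146% higher and 0.293% lower of all genes, with 2 at an unadjusted p under 0.05 and a median of -0.06. Every ApoYap ctrl library was above in none of the 78 and below in 3, against 3.45% and 3.59% of all genes. In Lats1/2 flox ctrl against BL/6 ctrl, 20 of the 78 were lower and 1 higher (edgeR's quasi-likelihood test), against 0.971% and 3.15% of all genes, with a median of -0.31, against 0.00 over all genes. Every Lats1/2 flox ctrl library was below every BL/6 ctrl library in 48 of the 78 and above in 2, against 5.89% and 7.83% of all genes. Rps27a had 68.7, 71.0, 80.6 and 39.3 CPM in Lats1/2 flox ctrl, against 110, 106, 117 and 121 CPM in BL/6 ctrl (-0.81, edgeR adjusted p = 0.032). Rpl23a went the other way, with 123, 106, 112 and 124 CPM, against 79.4, 87.4, 89.5 and 74.8 CPM (0.49, edgeR adjusted p = 0.012). Neither gene overlapped between the groups. The lower count was 5 without Lats1/2 flox ctrl 1 or 4, 7 without Lats1/2 flox ctrl 2, 9, 8, 4 and 2 without BL/6 ctrl 1, 2, 3 and 4 in turn, and 31 without BL/6 Dox 2. The higher call was lost without BL/6 ctrl 4, and there were 2 without BL/6 Dox 2.

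Library medians against BL/6 ctrl were -0.21 to -0.43 in Lats1/2 flox ctrl, -0.30 to -0.39 in Lats1/2 KO and -0.16 to -0.27 in BL/6 AAV-Cre, near those of BL/6 Dox 3 and 4. BL/6 Dox 1 and 2, ApoYap ctrl and BL/6 ctrl lay between -0.10 and 0.12. In the deposited table the columns of BL/6 Dox 1 and 2 stand among those of BL/6 ctrl and ApoYap, and BL/6 Dox 3 and 4 after the Lats1/2 and BL/6 AAV-Cre columns. The labels name no batch, so strain or virus and any shared handling cannot be told apart in the comparisons with BL/6 ctrl, whereas ApoYap Dox and Lats1/2 KO each stand beside their own control. Rpl23a moved with the same libraries in the opposite direction, at 115 and 122 CPM in BL/6 Dox 3 and 4, against 80.8 and 102 CPM in BL/6 Dox 1 and 2.

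**Figure D5:**
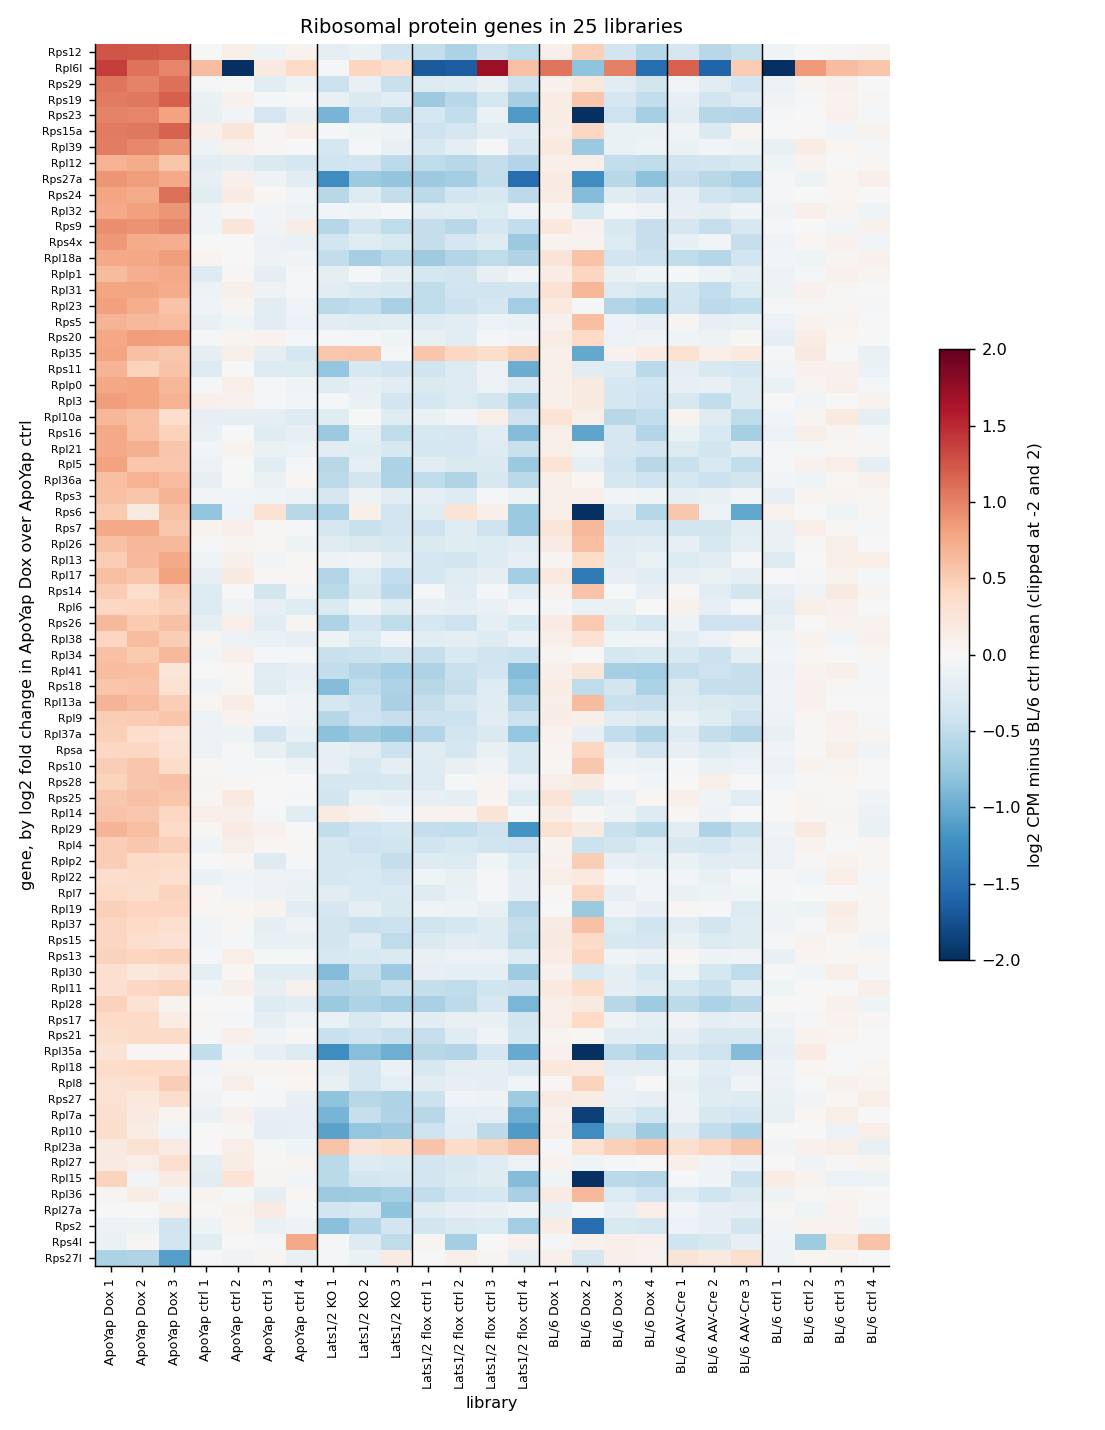
Log2 CPM of 77 of the 78 genes, each minus its BL/6 ctrl mean (colour, clipped at -2 and 2) in the 25 libraries, genes ordered by log2 fold change in ApoYap Dox over ApoYap ctrl. The ApoYap Dox columns have library medians of 0.51 to 0.56, the Lats1/2 columns of -0.21 to -0.43, over all 78 genes, and BL/6 Dox 2 holds 11 genes below -1.

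The genes spanned a wide range of levels. The 10 most abundant, led by Rplp1, Rps26, Rps14, Rps29 and Rpl37, held 31.4% of the summed CPM of the 78, and 60 genes averaged over 100 CPM. The least abundant were Rpl6l (0.620 CPM), Rps6 (9.94 CPM), Rpl15 (19.9 CPM) and Rpl10a (21.2 CPM). Pseudogene copies held 43.9% of the counts of Rps6 and its copies and 43.6% for Rpl10a, so these ranks are uncertain. For proteins present once per ribosome such a range describes the 3′ end counts and not the proteins.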

How the data were processed

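Hepatocyte RNA was made into 3′ end libraries (QuantSeq 3′ mRNA-Seq FWD), per the labels' protocols. The submitters' processing notes list FastQC, cutadapt, STAR 2.6.1d and the build mm10. No source used here names the counting tool, its annotation or its strand setting, so antisense, overlapping and duplicated genes are uncertain. The authors deposited whole-number counts per gene and library, not normalized, in 1 table of 25 libraries. No molecular identifiers are named, so floors cover counting error only.

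Column names gave each library's sample. Counts were fitted in R 4.3.3 with edgeR 4.0.16: filterByExpr by group (minimum count 10, total 15), TMM scaling, glmQLFit with robust estimation and 1 mean per group over all 25 libraries, glmQLFTest for 9 contrasts, and Benjamini-Hochberg adjustment over the 12970 genes of a contrast at 0.05. The prior count of fold changes was 0.125. Standard errors come from the fold change on the log2 scale and its F statistic. CPM are TMM scaled unless called unscaled. Alternatives were DESeq2 1.42.0, other scalings and filters, the compared groups alone, each library left out, and a replicate block. Counts at an unadjusted p, and most counts under an alternative, are given without the share of all genes.

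The members, gene lists and tests were chosen with earlier results of these data known. Named genes are the 8 highest and 8 lowest members in Yap induction and in Lats1/2 knockout, the 4 highest and lowest of other contrasts, the most and least abundant, members with a known special role, members dropped by the CPM limit, up to 4 genes per list by p, ribosomal proteins outside the symbol rule, and 10 factors and regulators the rule names (Myc, Mtor, Larp1, Eif4ebp1, Eef1a1, Eef2, Tpt1, Npm1, Ncl and Fbl). Named outside this rule, after their values were seen, were Rpl7, Rpl36a, Pabpc1, Nop58 and Rpl7a. One gene counted among the 78 is not reported singly here. Gene positions are from GENCODE M21 and promoters from RefSeq (GRCm38.p6). No pair of replicates agreed within sampling noise (lowest chi-square per degree of freedom 8.29).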

Additional observations from a re-analysis of the deposited data

Results flagged for a closer look

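Tests of a difference between contrasts passed for several results. In Lats1/2 knockout less Yap induction 57 of the 78 genes were lower and 1 higher, against 12.4% and 17.4% of all genes. Among them were Rps27l (0.72), Rps23 (-1.24), Rps29 (-1.20) and Rps27a (-1.01). In Yap induction net of doxycycline 60 were higher and 1 lower, against 26.7% and 27.4% of all genes. Rps23 was at 1.66, Rps27a at 1.44, Rps12 at 1.26, Rps29 at 1.20 and Rps27l at -0.70. In Lats1/2 knockout net of AAV-Cre 3 were higher (Rps12 0.72, Rps19 0.62, Rpl3 0.58) and 1 lower (Rpl23a -0.54). These counts were below the 13% and 11.4% of all genes, and none of the 4 calls held under all 37 settings.

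Single libraries far from the other 3 of their group, relative to the range of the group, were found in 7 of 116 groups of 4 examined, where chance flags about 1 in 20. Rps27l was at 157 CPM in BL/6 Dox 2. Rps4l was at 42.1 CPM in ApoYap ctrl 4, 15.6 CPM in Lats1/2 flox ctrl 2 and 24.5 CPM in BL/6 Dox 1. The last lay close to the other BL/6 Dox libraries, at 26.4, 26.8 and 26.55 CPM, and was flagged because those were nearly equal. Summed erythroid markers were at 17.3 unscaled CPM in BL/6 Dox 3, neutrophil markers at 1.53 in ApoYap ctrl 3, and T, NK and B cell markers at 0.677 in BL/6 Dox 3.

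Rows of pseudogene copies, outside the 78 genes, held 0.166% of counts on average in ApoYap Dox, above every ApoYap ctrl library (mean 0.0639%).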

How the results depend on the processing

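Of the 66 genes called in ApoYap Dox, 62 were called under all 37 settings, against 43 of 61 net of doxycycline, 44 of 58 for Lats1/2 knockout less Yap induction, 2 of 21 for Lats1/2 flox ctrl against BL/6 ctrl, and none of the 5 of the knockout. Rpl28 (0.39, adjusted p = 0.038) was lost without ApoYap ctrl 3 or 4 or ApoYap Dox 1 or 2, and Rpl29 without ApoYap Dox 1. Total counts alone gave 0 lower in Yap induction, with Rps27l at 0.20, and 0 lower net of doxycycline, with Rps27l at 0.22. They gave 54 higher and 0 lower in the knockout (Rpl22 0.24, Rpl27a 0.15, Rpl30 0.097, Rps27 0.12, Rps28 0.23), 52 higher and 0 lower net of AAV-Cre, and 0 higher for the knockout less Yap induction. In the knockout, RLE scaling gave 1 higher and 0 lower, TMM without the 50 most abundant genes 2 lower, DESeq2 3 higher and 1 lower, no filter 0 lower, a 10 CPM filter 3 lower, the compared groups alone 1 higher and 0 lower, and the fit without marker rows, chosen after seeing the data, 3 lower. Net of AAV-Cre, RLE gave 6 higher and 0 lower, DESeq2 12 higher, the 10 CPM filter 5, the compared groups alone 18, and no filter 0 lower. For AAV-Cre alone, DESeq2 gave 1 higher and 2 lower and the compared groups alone 1 higher and 27 lower. For Lats1/2 flox ctrl against BL/6 ctrl the compared groups alone gave 2 higher and 35 lower. Without BL/6 Dox 1 and 2 there were 3 higher and 9 lower in the knockout, 1 higher and 4 lower for doxycycline alone, 1 higher and 9 lower for AAV-Cre alone, 14 higher net of AAV-Cre, and 2 higher and 35 lower for Lats1/2 flox ctrl. Without BL/6 Dox 3 and 4, chosen after seeing the data, there were 2 higher in the knockout, 4 lower for AAV-Cre alone and 11 higher net of AAV-Cre. The cause of these moves was not tested.

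Leaving out each library in turn gave 63 to 66 higher and 1 lower in Yap induction, 0 to 1 higher and 1 to 6 lower in the knockout, 0 higher and 0 to 1 lower for doxycycline alone, 0 and 0 for AAV-Cre alone, 48 to 66 higher and 1 lower net of doxycycline, 0 to 6 higher and 0 to 1 lower net of AAV-Cre, 1 higher and 46 to 63 lower for the knockout less Yap induction, 0 and 0 for ApoYap ctrl against BL/6 ctrl, and 0 to 2 higher and 2 to 31 lower for Lats1/2 flox ctrl. Mean shares then ranged from 4.46% to 4.65% in ApoYap Dox, 1.52% to 1.57% in ApoYap ctrl, 1.52% to 1.67% in Lats1/2 KO, 1.16% to 1.24% in Lats1/2 flox ctrl, 1.41% to 1.54% in BL/6 Dox, 1.31% to 1.34% in BL/6 AAV-Cre and 1.5% to 1.56% in BL/6 ctrl. Without mitochondrially encoded genes in the total the shares were 5.08% in ApoYap Dox, 2.01% in ApoYap ctrl, 2.21% in Lats1/2 KO, 1.73% in Lats1/2 flox ctrl, 1.99% in BL/6 Dox, 1.79% in BL/6 AAV-Cre and 2.03% in BL/6 ctrl. Without the 50 most abundant other genes they were 6.34%, 3.13%, 3.06%, 2.6%, 3.06%, 2.67% and 3.17% in the same order, and with pseudogene rows added 1.61% in ApoYap ctrl and 1.39% in BL/6 AAV-Cre.

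Same-numbered replicates deviated together weakly or not at all (r of 0.10, 0.05 and 0.16 in Yap induction and -0.13, -0.24 and 0.02 in the knockout). In Yap induction, ApoYap Dox 1 and 3 each deviated most like the control of the same number. Such values cannot decide whether the numbers pair samples. With the replicate number as a block there were 64 higher and 1 lower in Yap induction and 0 higher and 5 lower in the knockout, and no count moved by over 1.5 times. Low counts limit Rpl6l and the 4 symbols left out. For Rpl24 the cause of the low counts, whether depth, annotation or the handling of shared reads, was not tested.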

Other observations

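Rpl39l and Rpl3l, paralogs of Rpl39 and Rpl3 below the CPM limit, had 36 and 24 counts over the 3 ApoYap Dox libraries, against 2 and 1 over the 4 ApoYap ctrl libraries. Rpl39l was at 1.41, 0.988 and 0.0885 unscaled CPM in ApoYap Dox 1, 2 and 3, so that its counts came nearly all from 2 libraries, and it had 10 counts over the 4 BL/6 Dox libraries, against 3 over BL/6 ctrl. Rpl39l had 4 counts over Lats1/2 KO, against 0 over Lats1/2 flox ctrl, and Rpl3l had 0, against 11. These counts were not tested.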
